A study of Rattus norvegicus with 6 samples.

Results

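The endoplasmic reticulum (ER) folds proteins bound for membranes and secretion, and its unfolded protein response is set off when folding falls behind. The sensors of that response are IRE1 (Ern1), which splices Xbp1 RNA, ATF6 (Atf6), which is cut to release a transcription factor, and PERK (Eif2ak3), which phosphorylates the initiation factor eIF2alpha and so favours translation of ATF4 (Atf4). ATF6 and XBP1 switch on chaperones and degradation factors of the ER. ATF4, which is also induced by amino acid shortage through other eIF2alpha kinases, switches on Ddit3 (CHOP), amino acid synthesis and transport, and the proximal tubule of the kidney is a site of serine synthesis in the body. The 35 genes described here are a list of such sensors, factors and targets, chosen by name with earlier results of these data known. They are 5 sensors and factors, 13 genes of the ATF4 and serine synthesis arm and 17 chaperone and degradation genes of the ATF6 and XBP1 arm.

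The samples were renal cortex of male Sprague-Dawley (Crl:CD(SD)) rats, bought at 5 weeks of age and kept on a basal diet. In the o-anisidine group 3 rats received o-anisidine hydrochloride, an aromatic amine salt, at 700 mg/kg/day for 4 weeks, and 3 control rats received water. RNA of each rat was hybridised to 1 single-colour (Cy3) Agilent array. The question of the design was which transcripts differ between the groups. Of the 35 genes, 33 were matched to 1 or more probes by accession and all 33 were well above background on all 6 arrays, among 31087 genes tested in all. Manf and Edem1 were not matched to a probe and are not analysed here. Signals counted as well above background for 41670 to 43630 of the 61657 probes on an array, and no spot was saturated. All 6 proximal tubule markers listed (Slc34a1, Lrp2, Cubn, Slc5a2, Slc22a6 and Aqp1) and the thick ascending limb gene Umod were well above background on every array, while Pvalb of the distal convoluted tubule was not above background on any. The 3 control arrays and o-anisidine 3 shared 1 slide, scanned on the same day, and o-anisidine 1 and 2 were on another, so the main differences are also given within the shared slide (o-anisidine 3 minus the mean of the controls).

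After o-anisidine none of the 33 measured genes passed the threshold of an adjusted p of 0.05 in either direction (limma, Benjamini-Hochberg over all genes tested, two-sided), against 0.0611% of all genes. Their log2 changes, o-anisidine minus control, lay between -0.38 (Trib3) and 0.57 (Mthfd2), with a median of -0.03 and a median size of 0.11, beside a median of 0.00 and a median size of 0.11 over all genes tested. At an unadjusted p under 0.05, 4 members were higher (Mthfd2, Asns, Chac1 and Ppp1r15a) and 1 was lower (Trib3), where 6.36% of all genes were higher and 5.14% lower. The groups did not overlap for 3 members that were higher and 3 that were lower, against 9.55% and 8.88% of all genes. The counts without overlap are near what all genes gave and are not a result about the list. The plot of changes by gene shows the 3 sets of genes with their intervals.

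**Figure D1:**
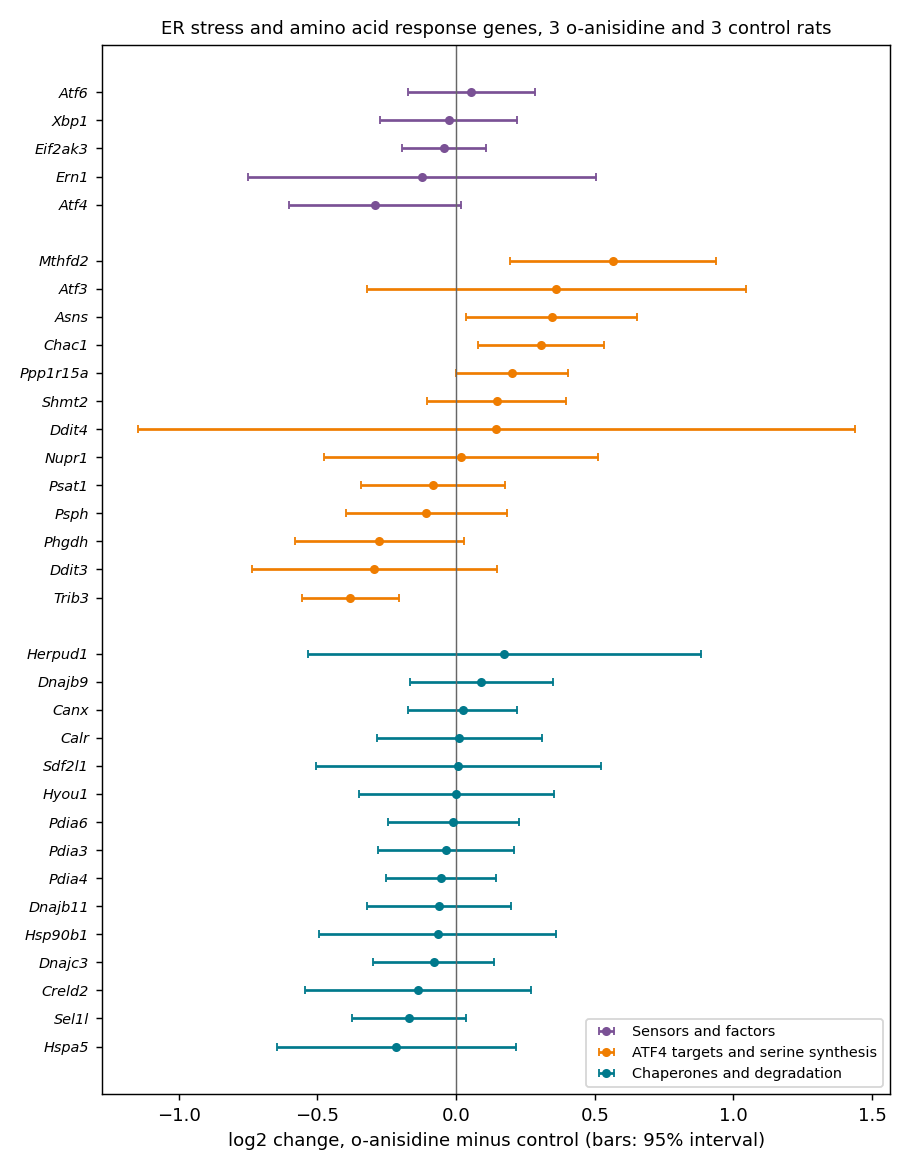
Log2 change (o-anisidine minus control, horizontal axis) of the 33 measured genes with 95% intervals from limma, not adjusted for the number of genes, in 3 coloured sets. The interval of 1 gene in the list lies wholly below 0 (Trib3) and those of 4 lie wholly above it (Mthfd2, Asns, Chac1 and Ppp1r15a), while those of all 15 chaperone and degradation genes span 0.

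The arrays were precise enough to bound most of these differences. A 95% interval that stayed inside a 1.5-fold change in either direction was obtained for 24 of the 33 genes, and 31 stayed inside a 2-fold change. Of all 31087 genes tested, 22249 stayed inside 1.5-fold and 28265 inside 2-fold, so the counts for the 33 are near what all genes gave. For the chaperone and degradation set, 13 of 15 intervals stayed inside 1.5-fold and all 15 inside 2-fold. These intervals hold gene by gene, are not adjusted for their number, and take in no slide effect. In a sample of whole cortex, fewer cells of a type and less RNA per cell cannot be told apart.

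Among the sensors and factors, 1 was above and 4 below a change of 0, with a median log2 change of -0.04. Levels are given as log2 signal minus log2 of the array's own 75th percentile. Xbp1, which encodes the factor that IRE1 activates by splicing, had 2.37, 2.45 and 2.47 on the o-anisidine arrays, against 2.30, 2.45 and 2.63 on the control arrays. The o-anisidine values lay inside the control range, and the log2 change was -0.03 (SE 0.10, adjusted p = 0.940). The sources used here do not say whether its probe separates spliced from unspliced RNA, so splicing was not assessed.

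Ern1, the gene of IRE1 itself, was dim, at -5.13, -4.97 and -5.22 after o-anisidine and -5.55, -4.53 and -4.87 in controls. The control rats spanned a wider range than the treated ones, which all lay inside it. For Atf6 the brightest probe gave 1.60, 1.73 and 1.48 on the o-anisidine arrays and 1.50, 1.65 and 1.49 on the control arrays (log2 change 0.06, SE 0.09, adjusted p = 0.851). Its other probes gave -0.19 and -0.04, so the sign depends on the probe and no direction is given for this gene. Eif2ak3, the gene of PERK, was at -0.01, -0.04 and -0.03 after o-anisidine, against 0.01, 0.03 and 0.01 in controls, and its groups did not overlap. That difference was very small (log2 change -0.04, SE 0.06, adjusted p = 0.828). On the dimmer probe of Eif2ak3 the groups overlapped (log2 change -0.23, SE 0.24).

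Atf4 RNA, from which the shared effector of the eIF2alpha kinases is translated, was at 4.50, 4.47 and 4.59 in o-anisidine rats and 4.82, 4.58 and 5.04 in control rats. The groups overlapped only through o-anisidine 3 and control 2, and the log2 change came to -0.29 (SE 0.13, adjusted p = 0.449), to -0.22 within the shared slide and to -0.18 without control 3. ATF4 is controlled largely at translation, which these arrays do not measure. The other eIF2alpha kinases on the array gave no call, with log2 changes of 0.00 for Eif2ak1, -0.01 for Eif2ak2 and -0.11 for Eif2ak4, which senses uncharged tRNA. With Eif2s1, the gene of eIF2alpha, and Ppp1r15b, the constitutive counterpart of Ppp1r15a, 0 of 5 genes of this list passed the adjusted threshold and 0 the unadjusted one, and the largest distances from 0 were those of Eif2ak4 and Ppp1r15b (0.03).

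In the ATF4 and serine synthesis set, 8 genes were above and 5 below a change of 0, with a median log2 change of 0.14 and a median size of 0.28. That median was 0.13 within the shared slide, 0.01 without o-anisidine 3, 0.06 without control 2 and 0.03 with the mean of all probes of a gene. Members of this set went opposite ways, so the set is described by role.

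The mitochondrial folate enzyme gene Mthfd2, which works on one-carbon units that come from serine, had the highest change of the 33 genes. It was at -0.74, -1.20 and -1.28 after o-anisidine, against -1.68, -1.56 and -1.67 in controls. Every o-anisidine value lay above every control value, o-anisidine 1 being the highest (log2 change 0.57, 1.48-fold, SE 0.15, 95% interval 0.19 to 0.94, adjusted p = 0.280, within the shared slide 0.36). All 5 probes of Mthfd2 were higher on average after o-anisidine, by 0.42 to 0.65 on the log2 scale, though 2 of them had groups that overlapped. Shmt2, the mitochondrial enzyme that takes the one-carbon unit from serine, had a log2 change of 0.15 (SE 0.10), with o-anisidine values of 3.47 to 3.69 overlapping control values of 3.30 to 3.58.

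Asns, which makes asparagine and is a classical target of ATF4, had -0.88, -1.06 and -0.70 after o-anisidine and -1.06, -1.36 and -1.25 in controls. The groups met at o-anisidine 2 and control 1, and the log2 change was 0.34 (1.27-fold, SE 0.13, adjusted p = 0.398), with 0.52 within the shared slide. Chac1, a glutathione-degrading enzyme induced by ATF4, had -0.82, -0.84 and -1.08 against -1.28, -1.18 and -1.20 in controls. The groups did not overlap on this probe (log2 change 0.31, SE 0.09, adjusted p = 0.330, within the shared slide 0.14), but the other kept probe of Chac1, which was dim and not well above background on 1 o-anisidine array, had a log2 change of -0.26, and the mean of its kept probes 0.03. Ppp1r15a (GADD34), which directs a phosphatase to eIF2alpha and so ends the response, was at 0.82, 0.81 and 0.69 in o-anisidine rats and 0.53, 0.68 and 0.51 in control rats. Its groups were apart by a narrow margin (log2 change 0.20, SE 0.08, adjusted p = 0.434, within the shared slide 0.12), and its other probe gave 0.21.

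Trib3, a pseudokinase induced by ATF4 and CHOP, stood at the other end. It had -4.44, -4.47 and -4.39 on the o-anisidine arrays against -3.97, -4.09 and -4.10 on the control arrays. All o-anisidine values lay below all control values (log2 change -0.38, 0.768-fold, SE 0.07, 95% interval -0.56 to -0.21, adjusted p = 0.148, within the shared slide -0.34). This was the smallest adjusted p of the 33 genes and still missed the threshold, and the signal of the single Trib3 probe was low: with normexp background correction its log2 change was -0.15. Ddit3, the gene of CHOP, which links ER stress to cell death, had 2.48, 2.59 and 2.55 after o-anisidine and 2.73, 2.53 and 3.23 in controls. Control 3 was the highest of the 6 arrays and control 2 lay among the treated values, so the groups overlapped (log2 change -0.30, SE 0.18, adjusted p = 0.580). Leaving out control 3 brought this to -0.10, and leaving out control 2 to -0.45. The second Ddit3 probe gave -0.33.

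The stress-induced factor gene Atf3 varied most among treated rats of those named so far, at -0.10, -1.19 and -0.42 after o-anisidine, against -0.89, -0.79 and -1.11 in controls. O-anisidine 1 and 3 were above all controls and o-anisidine 2 was below all of them (log2 change 0.36, SE 0.28, adjusted p = 0.659). Without o-anisidine 2 the log2 change was 0.67 (limma, adjusted p = 0.228), and without o-anisidine 1 it was 0.13 (adjusted p = 0.931). The summed signal of 6 markers of injured tubule (Havcr1, Lcn2, Krt19, Clu, Spp1 and Vcam1), in units of the 75th percentile of the array, was 119, 32.7 and 59.9 on o-anisidine 1, 2 and 3 and 21.5 to 28.8 in controls. Spp1 makes up most of the sum on o-anisidine 1. Of the 6 markers 5 were highest on that array, as were Atf3 and Mthfd2, but Vcam1 was not (2.20 there, 2.37 and 2.19 on o-anisidine 2 and 3, and 2.53 to 3.12 in controls), and it was lower on every treated array than on any control array. The part of tubule injury in the Atf3 and Mthfd2 values was not tested.

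**Figure D2:**
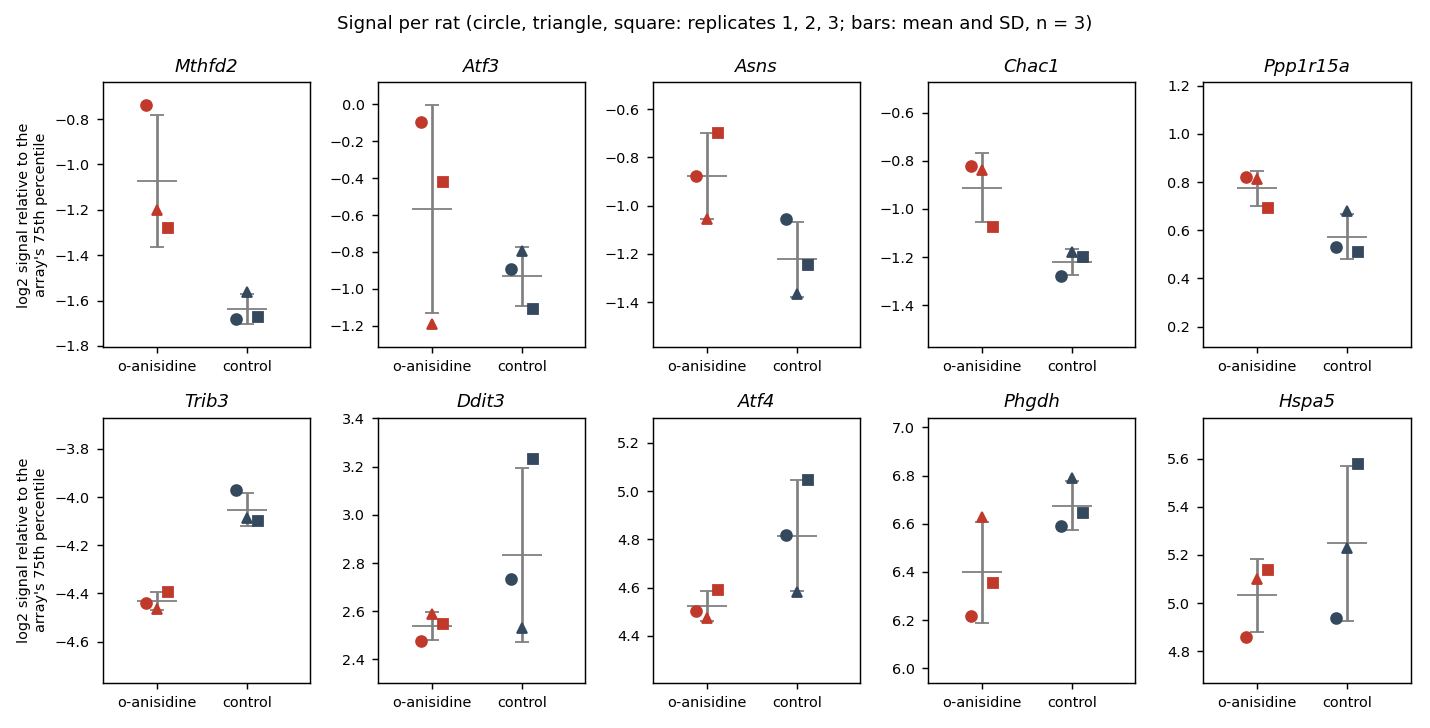
Log2 signal minus log2 of the array's 75th percentile (vertical axis) for 10 genes, with o-anisidine left and control right in each panel, 1 point per rat, and bars for the mean and SD (n = 3 each). Mthfd2, Chac1 and Ppp1r15a have all o-anisidine points above all control points and Trib3 all of them below, while Ddit3, Atf4 and Hspa5 are highest in control 3.

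The genes of serine synthesis proper did not share the direction of Mthfd2. Phgdh, whose enzyme commits a glycolytic intermediate to serine, had 6.22, 6.63 and 6.35 in o-anisidine rats and 6.59, 6.79 and 6.64 in control rats. O-anisidine 2 reached into the control range and the other treated values lay below it (log2 change -0.28, SE 0.13, adjusted p = 0.462, within the shared slide -0.32). The second Phgdh probe gave -0.29 with groups that did not overlap (6.25, 6.57 and 6.32 against 6.59, 6.76 and 6.67 in controls, unadjusted p = 0.0331, limma). The smallest adjusted p of Phgdh under the alternatives run was 0.246. The next enzymes of the pathway, Psat1 and Psph, had log2 changes of -0.08 (SE 0.11) and -0.11 (SE 0.12) with overlapping groups. The dimmer probe of Psat1 went the other way, at 0.10. Psph was at 2.42 on o-anisidine 3, below all controls (2.74 to 2.77), which gave -0.34 within the shared slide, past an unadjusted p of 0.05 there, and 0.01 without that array. Nupr1, a small nuclear protein of the stress response, had 0.02 (SE 0.20). Ddit4 (REDD1), an inhibitor of mTORC1, had 0.14 with the widest interval of the list, -1.15 to 1.44, and its sign turned without o-anisidine 3 (-0.26) and without control 2 (-0.19).

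The chaperones and degradation factors kept close to 0 as a set, with 6 above and 9 below, a median log2 change of -0.04 and a range of -0.22 (Hspa5) to 0.17 (Herpud1). In the main fit no member of this set was past an unadjusted p of 0.05 on all 6 arrays, and 1 was without control 3 (Herpud1). With normexp background correction Sel1l was past it on all 6 arrays. The median was 0.04 within the shared slide and 0.05 without control 3, so its sign depends on which arrays are used. The median of the ATF4 and serine synthesis set minus that of the chaperone set was 0.18, and between 0.06 and 0.19 under the alternatives run. No test of that difference between sets was made.

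Hspa5 encodes BiP, the Hsp70 of the ER and the usual readout of the unfolded protein response. It was at 4.86, 5.10 and 5.14 after o-anisidine, against 4.94, 5.23 and 5.58 in controls. The groups overlapped, control 3 was the highest and o-anisidine 1 the lowest of the 6 arrays, and the log2 change was -0.22 (0.861-fold, SE 0.18, 95% interval -0.65 to 0.21, adjusted p = 0.675). The interval leaves out a rise of 1.5-fold or more. The log2 change was -0.05 without control 3, -0.13 without o-anisidine 1, -0.37 without control 1 and -0.11 within the shared slide. Herpud1, a degradation factor of the ER membrane, was at 3.76, 3.82 and 4.15 in o-anisidine rats and 3.41, 3.40 and 4.39 in control rats, so that the control rats spanned the treated ones. Its log2 change of 0.17 (SE 0.29, adjusted p = 0.850) was 0.50 without control 3, past an unadjusted p of 0.05, then 0.01 without either of the other controls and 0.42 within the shared slide. Sel1l, the adaptor of the ubiquitin ligase that clears misfolded ER proteins, had groups that did not overlap, at -0.87, -0.83 and -0.82 against -0.78, -0.69 and -0.54 in controls (log2 change -0.17, SE 0.08, adjusted p = 0.499). On its dimmer probe the groups overlapped (log2 change -0.14, SE 0.11).

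The remaining chaperones differed by less on the brightest probe of each gene. Hsp90b1 (GRP94, the Hsp90 of the ER) had a log2 change of -0.07, Hyou1 (a nucleotide exchange factor for BiP) 0.00, and Sdf2l1 (a partner of BiP's J-domain proteins) 0.01. The dimmer probe of Hsp90b1 gave -0.26 (SE 0.18). Dnajb9, Dnajb11 and Dnajc3, J-domain partners of BiP, had 0.09, -0.06 and -0.08. The lectin chaperones Calr and Canx, which hold glycoproteins, had 0.01 and 0.02, and the disulfide isomerases Pdia3, Pdia4 and Pdia6 had -0.04, -0.05 and -0.01. Creld2, an ER stress-induced protein of the ER lumen, had -0.14, which was 0.03 without control 3. The largest SE in this group of 12 was that of Sdf2l1 (0.21), whose 3 probes gave 0.01 to 0.04.

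What the chaperone genes showed instead was a difference between individual rats. Control 3 had the highest value of the 6 arrays for 12 of the 15 genes (80.0%), where it was the highest for 15.7% of all genes tested. The lowest value fell on o-anisidine 1 for 6 and on control 1 for 4 of the 15. The SD was larger among controls than among treated rats for 13 of 15 genes, against 44.6% of all genes, with a median SD of 0.11 in o-anisidine rats and 0.16 in control rats. The median departure of the 15 genes from their own means over 6 arrays was -0.12, 0.02 and 0.06 on o-anisidine 1, 2 and 3 and -0.12, -0.04 and 0.17 on control 1, 2 and 3. In both groups that median rose from replicate 1 to 2 to 3. Over all genes tested, same-numbered rats did not deviate together (r of 0.02, 0.08 and 0.01). This pattern was seen in the data and is a description of 6 animals, in which genes are not independent observations. Plasma cells are rich in ER. The genes of the plasma cell and B cell marker list pointed different ways on control 3. The summed signal of the 4 tested genes of the marker list (Xbp1, Derl3, Cd79b and Pou2af1) was 5.93 to 6.74 on the o-anisidine arrays and 6.11 to 7.62 on the control arrays, highest on control 3. Xbp1 makes up most of that sum. Derl3, itself a degradation factor of the ER, had 0.05 there and -1.47 to -0.41 on the other arrays, and Xbp1 was highest there too. Mzb1 was highest there (-4.47, against -7.21 to -6.38 on the other arrays), as was Irf4 (-5.39, against -6.30 to -5.81), and neither passed the probe filter, being well above background on no o-anisidine array and on 1 and 2 control arrays. With Xbp1 and Derl3, which also belong to the ER response, left out, the summed signal of Cd79b and Pou2af1 was 0.408 to 0.446 on the o-anisidine arrays and 0.407 to 0.644 on the control arrays, with control 3 the lowest at 0.407. Most of this smaller sum is Pou2af1, which had -0.72, -0.98 and -1.39 on control 1, 2 and 3. The dim Cd79b had -4.77, -5.01 and -5.35 on the same arrays. The part of plasma cells in the control 3 values was not tested.

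**Figure D3:**
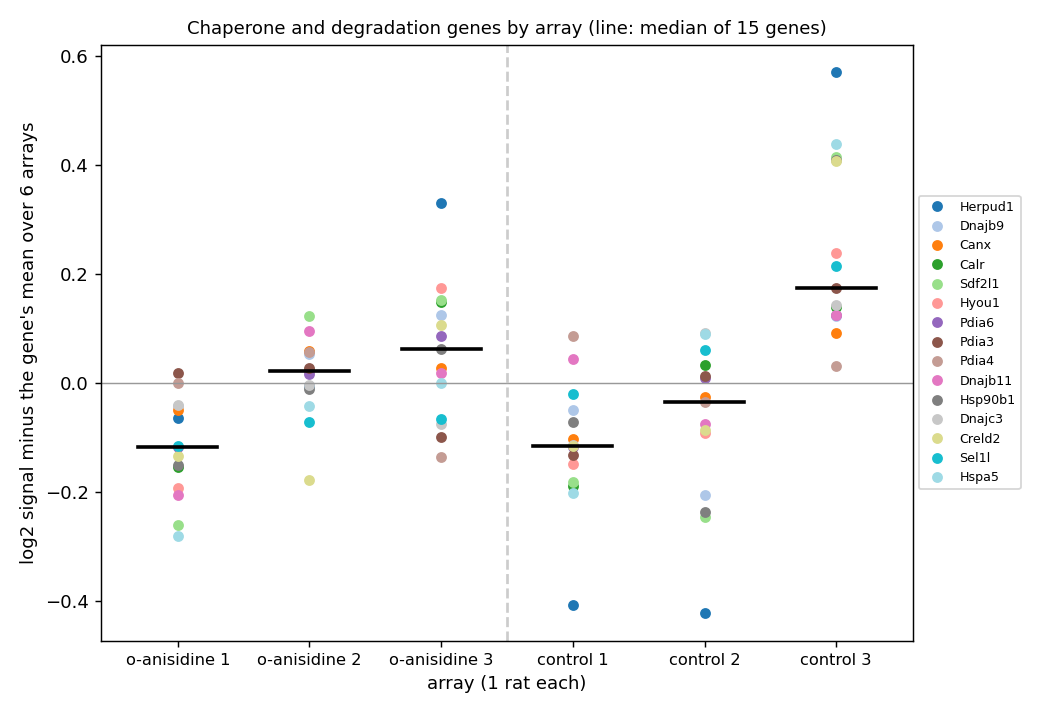
Log2 signal of each of the 15 chaperone and degradation genes minus its mean over the 6 arrays (vertical axis), by array, with o-anisidine arrays left and control arrays right, and a bar at the median of the 15 genes. Control 3 has the highest median (0.17), and o-anisidine 1 and control 1 the lowest (-0.12 each).

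The promoters of these genes are shown because the letters by which the response is known are visible in them. RefSeq promoter windows (GRCr8) of 300 bases, from 250 before to 50 after the annotated start, were found for 29 of the 35 genes and written on the gene's strand. Both strands were searched for the ER stress response element ERSE (CCAAT, any 9 bases, CCACG), for ERSE-II (ATTGG, any base, CCACG), for the UPRE core TGACGTGG and for the ATF4 site CARE (TGATGNAAN). Of 33469 rat windows, 0.0657% held ERSE, 0.0508% ERSE-II, 0.595% the UPRE core and 3.97% CARE. Among the chaperone and degradation genes 6 of 14 held ERSE (Calr, Canx, Creld2, Dnajc3, Hsp90b1 and Hspa5), 3 held ERSE-II (Dnajb11, Herpud1 and Hyou1) and 1 the UPRE core (Hyou1, overlapping an ERSE-II match), while Xbp1 held ERSE among the sensors and factors. Of 12 windows of the ATF4 and serine synthesis set, 0 held ERSE and 3 held CARE (Chac1, Nupr1 and Trib3), and Herpud1 held CARE beside ERSE-II. A match is a description of letters and not a bound site. The ERSE matches read 5′ to 3′ along the strand that carries them, with the fixed letters in capitals, are:
Hspa5: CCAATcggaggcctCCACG
Hsp90b1: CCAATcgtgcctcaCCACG
Calr: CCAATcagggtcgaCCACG
Canx: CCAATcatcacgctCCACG
Creld2: CCAATtgaggctcgCCACG
Dnajc3: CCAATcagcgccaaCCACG
Xbp1: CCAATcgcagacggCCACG

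The match of Hspa5 begins at position -43 and that of Xbp1 at -65, counting back from the annotated start, and the Hsp90b1 match shown at -72, with another at -176. The 7 genes with ERSE had log2 changes between -0.22 (Hspa5) and 0.02 (Canx), none past an unadjusted p of 0.05. The 4 genes with CARE had 0.31 (Chac1), 0.17 (Herpud1), 0.02 (Nupr1) and -0.38 (Trib3), so these letters did not go with a direction. The windows of Hspa5 (chr3:38452766-38453065, + strand), Herpud1 (chr19:10614658-10614957, - strand), Chac1 (chr3:126795881-126796180, + strand) and Trib3 (chr3:161275484-161275783, - strand) follow, with every match in capitals: ERSE in Hspa5, CARE and then ERSE-II in Herpud1, and CARE in Chac1 and Trib3, genes that lay on opposite sides of 0. All 3 CARE matches shown lie on the opposite strand and so read reversed and complemented.
Hspa5: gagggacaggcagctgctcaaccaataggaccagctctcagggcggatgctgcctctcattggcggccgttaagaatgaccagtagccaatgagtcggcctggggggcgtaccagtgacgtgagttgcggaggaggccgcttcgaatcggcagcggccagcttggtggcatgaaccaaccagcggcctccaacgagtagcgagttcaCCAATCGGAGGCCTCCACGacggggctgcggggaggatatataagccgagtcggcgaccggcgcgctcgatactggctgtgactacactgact
Herpud1: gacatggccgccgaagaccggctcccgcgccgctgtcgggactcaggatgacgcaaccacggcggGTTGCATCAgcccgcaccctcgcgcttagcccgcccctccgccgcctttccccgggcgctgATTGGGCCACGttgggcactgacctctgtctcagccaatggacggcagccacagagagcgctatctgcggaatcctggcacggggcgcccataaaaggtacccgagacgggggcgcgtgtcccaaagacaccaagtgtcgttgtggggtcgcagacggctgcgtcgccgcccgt
Chac1: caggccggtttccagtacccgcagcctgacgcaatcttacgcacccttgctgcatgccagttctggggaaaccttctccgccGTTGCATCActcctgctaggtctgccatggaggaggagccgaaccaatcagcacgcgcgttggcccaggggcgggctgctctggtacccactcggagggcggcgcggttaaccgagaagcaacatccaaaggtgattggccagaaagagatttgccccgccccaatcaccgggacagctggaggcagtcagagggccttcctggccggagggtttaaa
Trib3: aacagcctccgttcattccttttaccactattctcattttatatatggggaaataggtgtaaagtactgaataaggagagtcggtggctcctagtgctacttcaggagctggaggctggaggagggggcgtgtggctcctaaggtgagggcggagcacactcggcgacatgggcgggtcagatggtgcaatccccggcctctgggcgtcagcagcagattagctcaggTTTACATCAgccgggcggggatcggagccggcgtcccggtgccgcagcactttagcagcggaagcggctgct

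Other genes of the same pathways, 117 in 8 lists, gave 0 calls among 104 tested at the adjusted threshold, and 5 were higher and 3 lower at an unadjusted p under 0.05, counts that do not exceed the 6.36% and 5.14% of all genes. Among the 100 that were well above background on all arrays, 5 were higher and 2 lower. Their median log2 change was -0.01. In the list of other ATF4 and CHOP targets and factors 15 of 20 were above 0, where 50.9% of all genes were, with a median of 0.13 (0.08 within the shared slide), 4 higher and 0 lower at an unadjusted p under 0.05, beside 6.36% and 5.14% of all genes (limma). Pycr1, a mitochondrial enzyme of proline synthesis, had -3.90, -4.16 and -4.09 in o-anisidine rats and -5.24, -4.53 and -4.52 in control rats, every treated value lying above every control value (log2 change 0.71, SE 0.21, adjusted p = 0.318). Gadd45a, a growth arrest gene, had 0.29 (SE 0.10, adjusted p = 0.361), and its groups did not overlap.

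Cebpb, a factor that pairs with ATF4 at CARE sites, had the largest change of that list, 0.79 (SE 0.34, adjusted p = 0.448), with 3.40, 2.60 and 3.82 after o-anisidine against 2.47, 2.13 and 2.85 in controls. O-anisidine 2 lay inside the control range, as it did for Gdf15, a secreted stress cytokine, which had 0.08, -0.31 and 0.34 after o-anisidine and -0.67, -0.44 and -0.27 in controls (log2 change 0.50, SE 0.19, adjusted p = 0.412). Without o-anisidine 3 the log2 change of Cebpb was 0.51, and within the shared slide it was 1.33, with 0.80 for Gdf15. At the lower end of the list was Aldh18a1, the enzyme before Pycr1 in proline synthesis (-0.13, SE 0.08).

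Of the amino acid transporters, 8 were tested, of which 5 were well above background on all arrays, with 2 above 0, a median of -0.05, and 1 higher and 0 lower at an unadjusted p under 0.05 (limma). The others, Slc7a11, Slc7a5 and Slc7a3, passed the filter through 1 group and are left out of these counts. Slc1a5, a glutamine transporter, had 1.38, 1.61 and 1.90 after o-anisidine and 1.29, 1.32 and 0.78 in controls, with no overlap (log2 change 0.50, SE 0.20, adjusted p = 0.422). Without control 3 its log2 change was 0.33, and within the shared slide 0.77. Slc7a3, a carrier of cationic amino acids, was not well above background on any o-anisidine array. It was dim in controls too (-5.46, -5.40 and -5.60) and passed the filter through them alone, so no difference is read from it. It is among the lower genes in the count of all 104 tested, but not in the count of those well above background on all arrays. Cytosolic aminoacyl-tRNA synthetases, many of them ATF4 targets, had 7 of 19 above 0 and a median of -0.02, between -0.18 (Vars1) and 0.10 (Iars1). The smallest p values among them were those of Yars1 (-0.18, SE 0.07, adjusted p = 0.412) and Vars1 (adjusted p = 0.521).

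On the ER side, the translocon and glycosylation list had 8 of the 21 genes well above background on all arrays above 0 and a median of -0.01, with Ddost, a subunit of oligosaccharyltransferase, at -0.16 (SE 0.07, adjusted p = 0.435), Spcs3 at -0.17 (adjusted p = 0.559) and Stt3b highest at 0.11. Other foldases had 6 of 12 above 0 and a median of 0.00, the disulfide reductase gene Dnajc10 at -0.21 (SE 0.09, adjusted p = 0.446), Sil1, an exchange factor for BiP, at -0.21 (adjusted p = 0.456) and Pdia5 highest at 0.32 (SE 0.45). The Pdia5 value rests on control 3, at -1.50 against -0.10 and -0.02 in the other controls, and was -0.16 without it. Other degradation genes had 3 of 12 above 0 and a median of -0.03, with 1 lower at an unadjusted p under 0.05, Edem3, a mannosidase-related factor (-0.23, SE 0.09, adjusted p = 0.412), then Os9 (-0.16, adjusted p = 0.449), and Syvn1, the ligase Hrd1, highest at 0.10. The ER membrane factors had 2 of 6 above 0 and a median of -0.11, between -0.43 for Creb3l3 (SE 0.26, adjusted p = 0.573, but -0.17 without control 3 and -0.13 within the shared slide) and 0.08 for Creb3l2, with the second smallest p at Mbtps1, the protease that cuts ATF6 (-0.08, adjusted p = 0.671). No gene of these lists passed the adjusted threshold.

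**Figure D4:**
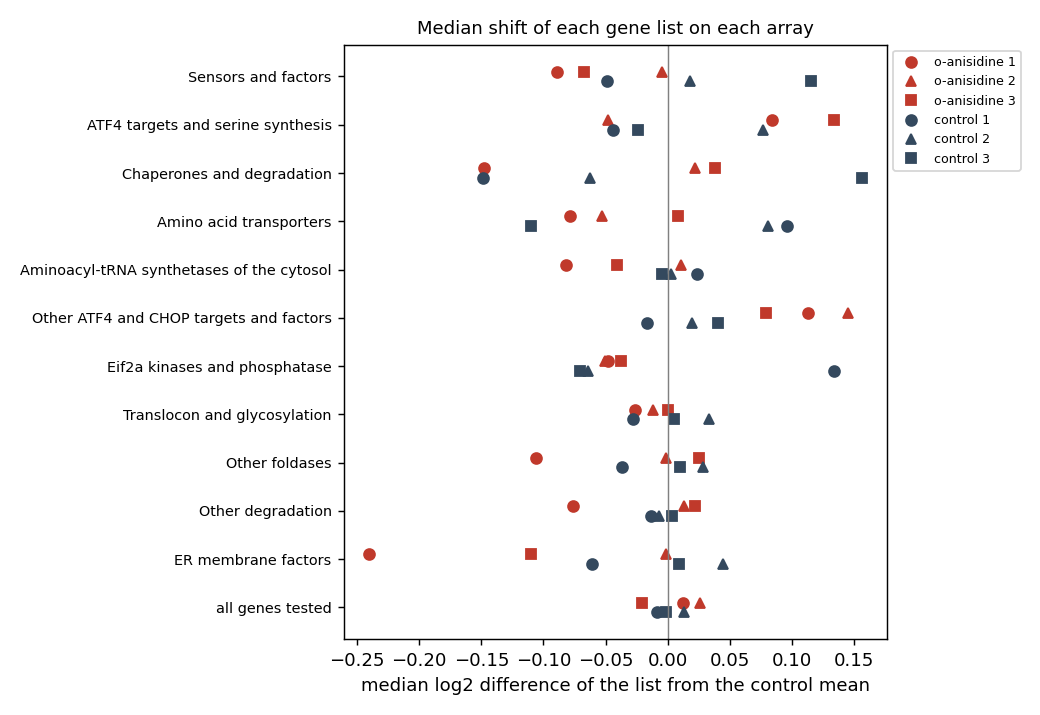
Median log2 difference of each gene list from the control mean (horizontal axis), 1 symbol per array, for the 3 sets of the list, the 8 lists of other pathway genes and all genes tested. The 3 o-anisidine symbols of the other ATF4 and CHOP targets (0.08 to 0.14) lie above the 3 control symbols (-0.02 to 0.04), and those of the chaperone set interleave with the controls.

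Markers of some other cell types stood apart between the groups. Summed signals in units of the 75th percentile were 656 to 733 on o-anisidine arrays and 334 to 456 on control arrays for 3 red cell genes, and 3.71 to 6.24 against 1.41 to 1.90 for 3 genes of dividing cells (Cdk1, Kif20a and Ccnb1). Of these 6 genes 1, the haemoglobin-stabilising Ahsp, passed the adjusted threshold (adjusted p = 0.0419). Hba-a1 makes up most of the red cell sum and was 1.86-fold higher, where Alas2 was 4.37-fold and Ahsp 5.06-fold higher. The sums overlapped between groups for proximal tubule (963 to 1152 and 976 to 1077), thick ascending limb, distal convoluted tubule, podocyte, endothelial, fibroblast, T cell and macrophage markers. For 4 collecting duct markers they did not, at 112 to 173 after o-anisidine and 186 to 201 in controls. Aqp2 and Atp6v1g3 make up most of that sum. The 4 genes did not share a direction, and only Aqp2 had groups without overlap (log2 change -0.58). Scnn1g had -0.34 and Atp6v1g3 -0.19, while Slc4a1 was higher after o-anisidine (0.26). The sum for dividing cells was 5.51, 3.71 and 6.24 on o-anisidine 1, 2 and 3. On the same arrays Mthfd2 was at -0.74, -1.20 and -1.28, lowest on o-anisidine 3, where that sum was highest. Pycr1 was at -3.90, -4.16 and -4.09 there, lowest on o-anisidine 2, where the sum was lowest of the treated rats. The part of dividing cells in the differences of Mthfd2 and Pycr1 was not tested.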

How the data were processed

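Arrays of renal cortex RNA from 6 rats were used, grouped by the sample titles. Per the file headers, the deposited scanner files were written by Agilent Feature Extraction 10.7.1.1 (10.7 in the submitters' processing notes) and give an intensity for each spot, and the processed intensity is background-subtracted and detrended, with no scaling between arrays. The deposited series table holds an intensity scaled by the authors; by comparison it equals the processed signal over the 75th percentile of an array, on a linear scale with column medians of 0.104 to 0.108, but each column matched another replicate of its group (r = 1.00, while r with its own array was 0.991 to 0.993). Both groups showed the same shift of columns. Replicate numbers follow the scanner files.

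Values are log2 processed signal minus log2 of the array's 75th percentile over 61657 probes. Probes with an outlier flag were removed (16), as were those that no group had well above background on each of its 3 arrays, which kept 42036. Unversioned accessions were looked up in RefSeq's GRCr8 gene table (27460 probes, 15284 symbols), used for names only since the array was annotated on rn4, per the file headers. The brightest kept probe stood for a gene. Groups were compared with limma 3.58.1 (lmFit, eBayes, no covariates) in R 4.3.3 over 31087 genes, 4 residual and 2.11 prior degrees of freedom. The code was tested on simulated data.

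The list of members, the other gene lists and the tests were chosen with earlier results of these data known. Named with values per array were, by rule, members past an unadjusted p of 0.05, the 4 largest and 4 lowest changes, the sensors, Hspa5 and Ddit3; in other lists the 2 smallest p and the largest and lowest change. Sel1l, Herpud1 and Shmt2, and the other genes of those lists, were given after their values were seen. Alternatives covered background correction, normalization, probe filter, probe choice, variance model, slide, replicate number and each array left out. Same-numbered rats of the groups did not deviate together (r of 0.02, 0.08 and 0.01 across genes), so the numbers were not taken as pairs.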

Additional observations from a re-analysis of the deposited data

How the results depend on the processing

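No member passed the adjusted threshold in any of the 19 alternatives, the smallest adjusted p of any member being 0.107, for Trib3 with no filter on dim probes. Mthfd2, Asns, Atf3 and Ppp1r15a stayed above 0, and Trib3, Ddit3, Atf4, Phgdh, Hspa5 and Eif2ak3 below it, wherever they could be computed. Atf6 had log2 changes of -0.20 with normexp background correction, -0.058 with the mean of all kept probes, -0.19 with its second probe, -0.0675 both with slide as a fixed block and on the shared slide alone, and -0.0083 to 0.117 with an array left out. Xbp1 had 0.0225 with normexp, 0.014 in both slide fits and -0.105 to 0.0572 with an array left out (0.0049 without o-anisidine 1, the highest without control 3). Ern1 had -0.408 to 0.103 with an array left out, the highest without control 2, and Chac1 had -0.26 on its second probe. In each case the cause was not tested.

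Counts moved more than the single genes. Normexp gave 67 higher and 17 lower genes over all genes tested, and 4 members lower at an unadjusted p under 0.05 and 5 lower without overlap. Quantile normalization gave 3 and 5 for those member counts. With no filter 5 genes were higher, with all 6 arrays above background 5 were lower, and eBayes with trend and robust settings gave 91 higher and 29 lower genes, with 3 members lower. Averaging the probes of a gene gave 2 members lower at an unadjusted p under 0.05 and 1 lower without overlap, with medians of -0.12 for the sensors and 0.0255 for the ATF4 set; second probes gave 2 members lower and a sensor median of -0.19. Fitting slide as a fixed term left 2 genes higher and 1 lower, and 1 member was higher and 2 lower. On the shared slide alone the single treated array lay above all controls for 8 of the 33 members and below them for 7. Of all 31087 genes tested it lay above them for 7823 and below them for 9842. The shares of the members do not exceed these and are not a result about the list. With replicate number as a block, 1 gene was higher and 0 lower (limma; 3 members lower at an unadjusted p under 0.05 in that fit). With 1 array left out, genes higher were 2 to 16 and lower 1 to 5, members higher at an unadjusted p under 0.05 were 1 to 3 and lower 1 to 3, members without overlap 3 to 5 higher and 3 to 7 lower, and the ATF4 set median was 0.0107 (without o-anisidine 3) to 0.14. Counting only other pathway genes well above background on all 6 arrays, an alternative chosen after seeing the data, gave 5 higher and 2 lower in place of 5 and 3. For the other member counts of these alternatives no share over all genes is given, and they are not read as a result about the list. Precision is limited by 3 arrays a group and by the uneven slides. Ern1 and Trib3 are dim.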

Other observations

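Ddit4 varied more between rats than any other of the 33 genes and did so alike in both groups. Its brightest probe had 2.42, 1.71 and 3.27 on o-anisidine 1, 2 and 3 and 2.07, 1.66 and 3.23 on control 1, 2 and 3, so that o-anisidine 3 and control 3 stood above the other rats and o-anisidine 2 and control 2 were the lowest. Both other probes of the gene gave the same order of rats within each group, with log2 changes of 0.07 each. The replicate numbers were not shown to pair the rats over all genes.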
